A study of Homo sapiens with 18 samples.

Results

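The genes examined were the H/ACA box small nucleolar RNAs (SNORA genes) and the small Cajal body RNAs (SCARNA genes) of HEK293 cells, a human embryonic kidney line. Members were the genes whose symbol starts with SNORA or SCARNA followed by a digit and that have a row of the array annotated with that symbol alone. Where a gene had several such rows, the row with the highest mean stood for it. This gave 81 members, 61 SNORA and 20 SCARNA genes, of 22357 genes with a row of their own. A row was tested where it exceeded the median of all rows on 3 or more of the 18 arrays, and 69 members passed (52 SNORA and 17 SCARNA genes), of 16111 genes in all. The other members are only counted here. Another 34 SNORA or SCARNA symbols, among them SNORA73A and SCARNA9, occur only on rows shared by several symbols and are not analysed here. SNORA73B has no row of its own and is not analysed here either.

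All cells overexpressed murine TLR5, the receptor for flagellin, and had grown in media with heavy, medium or light amino acids. They received isolated flagellin of Salmonella Typhimurium SL1344 (ST), isolated flagellin of E. coli Nissle (EcN), a probiotic strain, or a mock control. The flagellin concentration was set to a multiplicity of infection of 10, and RNA was taken after 120 or 60 min. There were 6 groups of 3 arrays, lettered A, B and C: ST 120 min, EcN 120 min, mock 120 min, ST 60 min, EcN 60 min and mock 60 min. The labels call the replicates biological. The sources used here do not say whether each came from a separate culture, or which amino acid label and day belonged to which array. All p-values therefore measure the spread between these arrays, which may be technical. The 6 ST arrays carry conflicting labels: ST stands in the title, source name and treatment, but mock in the description. Grouping went by the titles.

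H/ACA RNAs fold into hairpins that pair with a target RNA and guide the enzyme dyskerin (DKC1) to turn a uridine into pseudouridine. Most SNORA RNAs direct this to ribosomal RNA in the nucleolus. Cajal body RNAs direct modification of the spliceosomal U RNAs instead; they include H/ACA guides, C/D box guides of 2′-O-methylation, and composites of both kinds. In humans nearly all are cut from introns of a host gene, so their supply follows transcription and splicing of that host. Of the 81 members, 80 were found in the RefSeq gene table (GRCh38.p14), and 78 of them lie within the span of another gene. SCARNA2, which is known to have its own promoter, and SNORA50C were among the few that do not. The RefSeq table gives no strand, so a gene that holds a member is not shown to be its host. Probes inside a member also match the unspliced host transcript, and these values cannot tell mature guide from precursor.

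The tables of sequence used here hold no small nucleolar RNA and no promoter of a member. Promoter windows of 300 bases from RefSeq (GRCh38.p14), 250 before and 50 from the annotated start, exist for 12 of the 14 genes that hold a member called below. A pair of them is shown, for the long noncoding RNAs that hold the SCARNA17 and SNORA13 rows, both called under each flagellin. SNHG22 and SCARNA17 have the same annotated start, so the first window also covers the bases before SCARNA17 and its first 50 bases, if both run on the same strand. SNHG22 lies at chr18:49813773-49814072 on the plus strand and EPB41L4A-AS1 at chr5:112160276-112160575 on the plus strand. Capitals mark the bases from the annotated start onward.
SNHG22: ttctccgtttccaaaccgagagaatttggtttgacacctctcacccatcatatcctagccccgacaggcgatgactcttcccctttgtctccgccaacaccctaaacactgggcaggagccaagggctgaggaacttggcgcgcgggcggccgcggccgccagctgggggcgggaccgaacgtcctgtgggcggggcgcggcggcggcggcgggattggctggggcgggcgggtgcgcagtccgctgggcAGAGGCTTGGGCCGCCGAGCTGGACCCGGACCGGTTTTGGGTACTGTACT
EPB41L4A-AS1: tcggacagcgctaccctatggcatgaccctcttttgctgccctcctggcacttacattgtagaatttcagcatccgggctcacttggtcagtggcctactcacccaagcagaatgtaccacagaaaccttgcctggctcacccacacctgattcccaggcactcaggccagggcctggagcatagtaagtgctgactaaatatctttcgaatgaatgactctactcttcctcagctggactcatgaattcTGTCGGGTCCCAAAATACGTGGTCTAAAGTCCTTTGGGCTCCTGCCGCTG
On both strands, CCAAT (the CCAAT box) occurred in 34.6% of 35116 RefSeq promoter windows of this length, CACGTG (the E-box bound by MYC) in 7.26%, and GAAA and GAAA spaced by 2 bases (an interferon response element) in 3.57%. The SNHG22 window held 1 CCAAT match and neither of the other motifs, and the EPB41L4A-AS1 window held none of the 3. These are matches of letters and are no evidence of binding.

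Several arrays stood apart in the response to the receptor. NFKBIA, TNFAIP3 and CXCL8, genes driven by NF-kB, were high on the C arrays of all 4 flagellin groups and on mock 120 min A. The log2 level of CXCL8 was 8.76 and 7.47 on the C arrays of ST and EcN at 120 min, 7.92 and 5.62 on those at 60 min, and 7.53 on mock 120 min A; the range elsewhere was 2.16 to 2.90. The A and B arrays of the flagellin groups thus had mock-like levels of this gene, and mock 120 min A did not. Whether samples were exchanged was not tested; every difference from mock below takes the labels as they stand. Results below are also given with the 6 C arrays left out, alone or together with mock 120 min A. Of markers of other cell types, 2 of 6 leukocyte genes with a row of their own, 3 of 6 fibroblast genes and 5 of 6 intestinal epithelium genes passed the filter. CD68 (leukocytes) was called higher and LGR5 (intestinal stem cells) lower with EcN at 60 min. Of the 3 neurofilament genes, which HEK293 cells are known to express, INA ran from 7.58 to 8.66, and NEFL lay above INA on every array. NEFM went the other way and lay near or below the array medians of all rows. The leukocyte gene CD68 ran from 8.89 to 9.46 and CD14 from 2.34 to 2.93. Of the intestinal genes, LGR5 ran from 8.13 to 9.15, EPCAM from 7.64 to 8.27 and CDH17 from 3.59 to 4.69. VIL1 (2.04 to 2.83) and MUC2 (2.26 to 2.64) lay near the array medians of all rows. The part of these genes in the results was not tested.

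After 60 min a small group of guide RNAs differed from mock with either flagellin, mostly upward. With ST, 7 of 69 members were higher (10.1%) and 1 was lower (1.45%), at an adjusted p under 0.05 in limma; among the 16111 genes tested, 2.23% rose and 3.03% fell. With EcN, 5 members were higher (7.25%) and 1 was lower (1.45%), against 3.08% and 3.37% of all genes. SCARNA17, SNORA13 and SNORA50C were called higher in both comparisons, which share the 3 mock arrays at 60 min. The members' median log2 fold change was 0.05 with ST and 0.02 with EcN, beside 0.00 and 0.01 over all genes, and 39 and 38 of the 69 members lay above 0. At an unadjusted p under 0.05 there were 24 members with ST and 20 with EcN, 34.8% and 29% of those tested, while 22.5% and 24.8% of all genes reached it.

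These counts turned on single arrays. Without 1 array, the members called higher with ST fell to 1 (mock 60 min C), 2 (ST 60 min A, or ST 60 min C), 3 (mock 60 min A, or ST 60 min B) or 4 (mock 60 min B). Those called higher with EcN fell to 0 without replicate B or C of mock 60 min or of EcN 60 min, and to 2 without EcN 60 min A. With the 6 C arrays left out, 0 members were higher with either flagellin. With mock 120 min A left out too, 1 was higher with ST and 3 with EcN. The share of all genes called in each of these fits is not given here. No called member changed sign under any alternative.

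The calls of single members were lost as follows. With ST, SNORA74A and SNORA5C lost theirs without mock 60 min A or C or any ST array at 60 min, SCARNA17 without any mock or ST array at 60 min, and SCARNA18 without any mock array or without ST 60 min A or C. With EcN, SNORA21 and SNORA50C lost theirs without replicate B or C of either group, SCARNA17 without mock 60 min B or C or any EcN array, SCARNA10 without any array of either group, and SCARNA20 without any mock array or EcN 60 min A or B. With the C arrays left out SCARNA20 alone stayed called, and with mock 120 min A left out too SNORA65 with ST and SCARNA17, SNORA21 and SCARNA20 with EcN did. Other settings also ended calls, with ST: SNORA5C lost its call with only the groups compared and with the replicate block. SNORA50C and SNORA22 lost theirs under both of these and with no filter on low values.

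**Figure D1:**
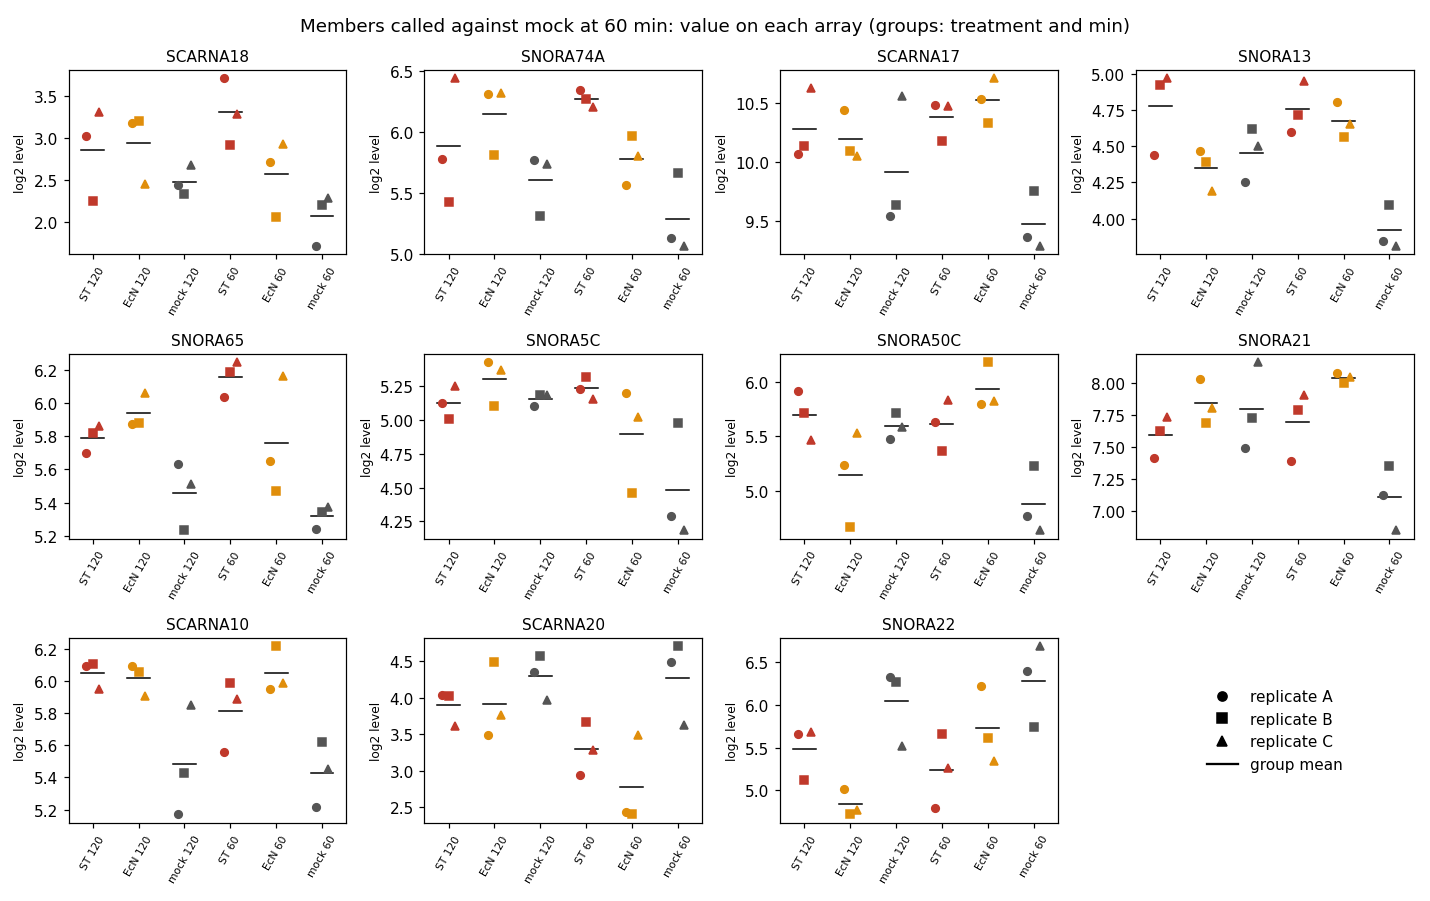
Log2 level of each of the 11 members called against mock at 60 min, on every array (vertical axis), by group (horizontal axis); bars are group means, and marker shapes are replicate letters. At 60 min the 3 ST arrays of SNORA65 lie at 6.04 or above and the 3 mock arrays at 5.37 or below, while for several members mock 120 min C lies near the flagellin arrays.

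Among guides of ribosomal RNA, SNORA65 gave the most stable difference. SNORA65, a guide for 28S rRNA, had 6.04, 6.19 and 6.25 on the ST arrays at 60 min, against 5.24, 5.34 and 5.37 on the mock arrays (log2 levels, replicates A, B and C). The groups did not overlap, and the spread within each was small beside the gap between them. The log2 fold change was 0.84 ± 0.15 (SE, n = 3 per group), 1.79-fold, with an adjusted p of 0.0101 in limma. It was called in 18 of 18 fits that left out 1 array (adjusted p 0.00502 to 0.0453) and missed the threshold without the 6 C arrays. The EcN arrays at 60 min had 5.65, 5.47 and 6.16, also all above mock, with a log2 fold change of 0.44 that did not pass (adjusted p = 0.0793).

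SNORA13, which guides modification of the 18S rRNA, was the other steady case and rose with both flagellins. It had 4.60, 4.72 and 4.95 on the ST arrays, 4.81, 4.57 and 4.66 on the EcN arrays, and 3.85, 4.10 and 3.81 on the mock arrays at 60 min. Every flagellin array lay above every mock array. The log2 fold change was 0.84 ± 0.15 with ST (adjusted p = 0.0114) and 0.76 ± 0.15 with EcN (adjusted p = 0.0187, limma). The ST call held in 17 of 18 fits without 1 array and was lost without mock 60 min C (adjusted p = 0.0531). The EcN call held in 13 of them and was lost without mock 60 min B or C or without any 1 of the EcN arrays at 60 min. Both calls were lost without the 6 C arrays, also with mock 120 min A left out.

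SNORA50C, a guide for 18S rRNA with no gene around it in the RefSeq table, had 5.64, 5.37 and 5.84 on the ST arrays, 5.79, 6.18 and 5.83 on the EcN arrays, and 4.77, 5.23 and 4.64 on the mock arrays at 60 min. All flagellin arrays were above all mock arrays, by less on ST 60 min B than elsewhere. It rose by 1.05 ± 0.21 with EcN (adjusted p = 0.0186) and by 0.73 ± 0.21 with ST (adjusted p = 0.0495). The ST call sat at the threshold and held in 4 of 18 fits without 1 array (mock 120 min A or C, or EcN 120 min B or C; adjusted p 0.0325 to 0.173 over all 18), while the EcN call held in 14. It was lost after array medians were subtracted and after renewed quantile normalization, with ST.

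SNORA21, a guide for 28S rRNA, was called with EcN. It had 8.08, 7.995 and 8.05 on the EcN arrays and 7.13, 7.35 and 6.85 on the mock arrays at 60 min. The EcN arrays were tight and lay clear of mock, and the log2 fold change was 0.93 ± 0.17 (adjusted p = 0.0186). A second row annotated to SNORA21 disagreed: it had 5.66, 5.17 and 5.66 on the EcN arrays and 5.28, 5.59 and 5.61 on the mock arrays, which overlap. With the mean of both rows the call was lost.

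SNORA74A (U19) and SNORA5C were called with ST. SNORA74A, a guide for 28S rRNA, had 6.34, 6.27 and 6.20 on the ST arrays against 5.13, 5.66 and 5.06 on the mock arrays, a log2 fold change of 0.99 ± 0.23 (adjusted p = 0.0241). SNORA5C had 5.22, 5.32 and 5.16 against 4.29, 4.98 and 4.18, a log2 fold change of 0.75 ± 0.19 (adjusted p = 0.0348). For both the ST arrays were close together and mock 60 min B was the mock array nearest to them. Their near copies did not follow to the same extent: the log2 fold change of SNORA74B with ST was 0.19, and that of SNORA5A was 0.04, neither called. RNA of a copy may bind probes of a near copy, so such differences between copies are uncertain.

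Among Cajal body RNAs, SCARNA17, a C/D box guide for U12 and U4, rose with both flagellins. It had 10.48, 10.18 and 10.48 on the ST arrays, 10.54, 10.33 and 10.71 on the EcN arrays, and 9.36, 9.76 and 9.29 on the mock arrays at 60 min. No flagellin array overlapped mock. The log2 fold change was 1.06 ± 0.23 with EcN (adjusted p = 0.0219) and 0.91 ± 0.23 with ST (adjusted p = 0.0338). At 120 min the mock arrays had 9.54, 9.63 and 10.56, so that mock 120 min C lay within the flagellin range while the other mock arrays did not.

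SCARNA10 (U85), the composite guide that directs both modifications of U5, had 5.95, 6.21 and 5.99 on the EcN arrays and 5.21, 5.62 and 5.45 on the mock arrays at 60 min. It rose by 0.62 ± 0.16 with EcN (adjusted p = 0.0333). With ST it had 5.56, 5.99 and 5.89, which overlap mock, and a log2 fold change of 0.38 (adjusted p = 0.161). SCARNA18 was called with ST, with 3.71, 2.92 and 3.29 on the ST arrays against 1.71, 2.20 and 2.28 on the mock arrays. The fit gave a log2 fold change of 1.24 ± 0.29 (adjusted p = 0.0255). Its mock arrays lay below or near the array medians (2.27 to 2.32), so the size of this change is uncertain.

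A pair of members fell. SCARNA20, an H/ACA guide for U12, had 2.43, 2.40 and 3.49 on the EcN arrays and 4.49, 4.70 and 3.62 on the mock arrays at 60 min. EcN 60 min C and mock 60 min C nearly met, while the A and B arrays lay apart. It fell by 1.496 ± 0.33 on the log2 scale (adjusted p = 0.0226, limma), and with ST the log2 fold change was -0.97 (adjusted p = 0.0918). EcN 60 min A and B lay near the array medians of all rows (2.27 to 2.32), so the size of this fall is uncertain. SNORA22, a guide for 28S rRNA, had 4.79, 5.66 and 5.27 on the ST arrays and 6.40, 5.75 and 6.68 on the mock arrays. It fell by 1.04 ± 0.29 (adjusted p = 0.0476), and this call held in 5 of 18 fits without 1 array (mock 120 min A or C, EcN 60 min A or C, or ST 120 min B) and was lost in the others. Mock 60 min B and ST 60 min B differed by little, and the A and C arrays by more.

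**Figure D2:**
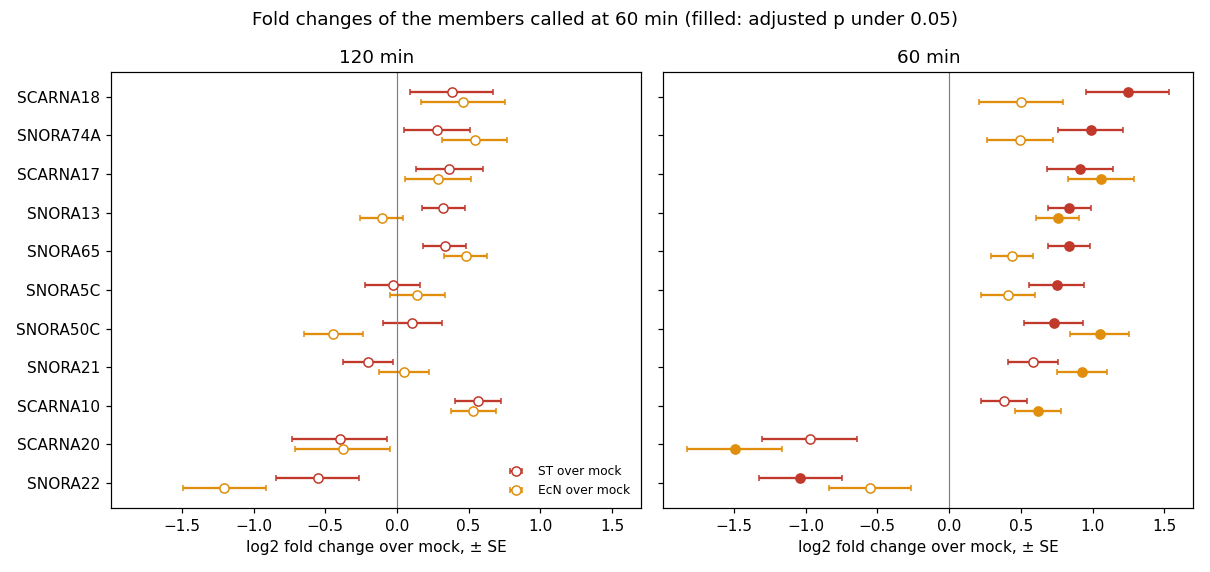
Log2 fold change over mock with its SE (horizontal axis) for the 11 members called at 60 min (vertical axis), at 120 min and at 60 min, for ST and EcN. Filled points passed an adjusted p of 0.05, and no point at 120 min is filled.

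At 120 min no member was called over mock with either flagellin in limma. The background was also low: with ST 0.31% of all genes rose and 0.248% fell, and with EcN 0.0248% rose and 0.0372% fell. At an unadjusted p under 0.05, 9 members were higher and 7 lower with ST, and 6 were higher and 12 lower with EcN. In both directions together this was 23.2% of members with ST and 26.1% with EcN, beside 17.6% and 16.5% of all genes. The members' median log2 fold change was -0.03 with ST and -0.13 with EcN, beside 0.00 over all genes with EcN.

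The members nearest to a call at 120 min were guides of both kinds of target. SCARNA10 had 6.09, 6.10 and 5.95 on the ST arrays, against 5.17, 5.43 and 5.85 on the mock arrays, and its EcN arrays read 6.09, 6.05 and 5.90. All 6 flagellin arrays lay above mock, mock 120 min C by a narrow margin, and the log2 fold change with ST was 0.56 ± 0.16 (adjusted p = 0.0986). SCARNA2, a guide for U2, had 7.42, 7.41 and 8.23 on the ST arrays and 7.39, 6.19 and 6.89 on the mock arrays, a log2 fold change of 0.86 ± 0.25 (adjusted p = 0.105). ST 120 min C and mock 120 min B were its highest and lowest arrays of all 18. SNORA60 had 6.25, 6.38 and 6.12 on the EcN arrays and 4.46, 5.61 and 5.50 on the mock arrays, a log2 fold change of 1.06 ± 0.23 (adjusted p = 0.0726), with mock 120 min A far below the others. SNORA22 had 5.02, 4.72 and 4.77 on the EcN arrays and 6.33, 6.27 and 5.52 on the mock arrays, a log2 fold change of -1.20 ± 0.29 (adjusted p = 0.0812).

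These cases passed the threshold when single mock arrays were left out. Over 29 alternatives SNORA60, SNORA22 and SCARNA2 gained a call in 2 each, and SCARNA10 in 1. Without mock 120 min C, 2 members were called higher and 4 lower with EcN at 120 min in limma. SNORA60 had an adjusted p of 0.0128 there and SNORA22 of 0.0133, and SCARNA10 was called with ST (adjusted p = 0.0148). The share of all genes called in that fit is not given here, so these counts cannot be set against it. SCARNA2 was called with ST without mock 120 min A (adjusted p = 0.0186). Over all alternatives the log2 fold change with EcN ran from 0.69 to 1.28 for SNORA60 and from -1.47 to -1.06 for SNORA22. With ST it ran from 0.41 to 0.80 for SCARNA10 and from 0.54 to 1.22 for SCARNA2. On SNORA22 the array mock 120 min C read 5.52 beside 6.33 and 6.27 on the other mock arrays, which is nearer to the ST 120 min arrays (5.66, 5.12 and 5.68).

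ST and EcN were not told apart by any member. In limma, 0 of 69 members were called in ST over EcN at either time, and so were 0% of all genes. At an unadjusted p under 0.05 there were 8 members at 60 min (11.6%) and 13 at 120 min (18.8%), against 9.19% and 11.7% of all genes. The smallest p-values at 60 min belonged to SNORA57 and SNORA80B. SNORA57 had 6.12, 6.15 and 6.01 on the ST arrays, against 5.57, 5.66 and 5.65 with EcN, a log2 fold change of 0.46 ± 0.14 (adjusted p = 0.364). SNORA80B had 4.88, 4.58 and 4.85 against 4.27, 3.97 and 4.55, a log2 fold change of 0.50 ± 0.18 (adjusted p = 0.431). Neither pair of groups overlapped. At 120 min SNORA2A, a guide for 28S rRNA, had 4.84, 3.96 and 5.03 on the ST arrays and 3.53, 3.46 and 4.001 on the EcN arrays, which overlap at ST 120 min B, and a log2 fold change of 0.95 ± 0.25 (adjusted p = 0.220). SCARNA2 differed by 0.83 ± 0.25 (adjusted p = 0.258), its EcN arrays at 6.89, 6.75 and 6.92.

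Between times, no member was called within mock, EcN or ST, and 0% of all genes were. An unadjusted p under 0.05 was reached by 10 members in mock (14.5%, beside 12.1% of all genes), 13 in EcN (18.8%, beside 7.95%) and 3 in ST (4.35%, beside 4.8%). In mock cells SNORA21 had 7.49, 7.72 and 8.16 at 120 min against 7.13, 7.35 and 6.85 at 60 min, a log2 fold change of 0.68 ± 0.17 (adjusted p = 0.195). SNORA16B had 1.65, 1.47 and 1.26 at 120 min against 2.08, 3.27 and 2.61 at 60 min, without overlap. All 3 arrays at 120 min and mock 60 min A lie below the array medians, and mock 60 min B and C above them. Without mock 120 min A, 5 members were called higher and 3 lower at 120 min in mock cells. The share of all genes called in that fit is not given here. All 3 mock arrays at 60 min lay below all 3 at 120 min for 10 of 69 members (14.5%), beside 5.62% of all genes. Among these 10 were 5 of the 11 members called over mock at 60 min, calls that rest on the same mock arrays: SNORA21, SNORA13, SNORA50C, SNORA5C and SCARNA18.

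In EcN cells the widest difference in time was that of SNORA38B, which had 11.29, 11.82 and 11.41 at 120 min against 9.97, 9.72 and 10.47 at 60 min. The groups did not overlap, yet the log2 fold change of 1.45 ± 0.38 did not pass (adjusted p = 0.408). Its within-group SD over all groups was 0.54, beside a median of 0.31 over the members. No gene of any spread passed in this comparison: the lowest adjusted p over all genes was 0.25 in limma. SNORA50C had 5.24, 4.67 and 5.53 at 120 min against 5.79, 6.18 and 5.83 at 60 min (log2 fold change -0.78 ± 0.21, adjusted p = 0.408). In ST cells SNORA2A and SNORA65 had the smallest p-values, with log2 fold changes of 0.63 ± 0.25 and -0.36 ± 0.15 (adjusted p = 0.990 for both).

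The change of a flagellin's effect between times was tested as an interaction. In limma 0 members and 0% of all genes passed for EcN or for ST. For EcN, 15 members had an unadjusted p under 0.05 (21.7%, beside 12% of all genes), and for ST 10 (14.5%, beside 10.7%). The EcN effect on SNORA50C was lower at 120 than at 60 min by 1.49 ± 0.29 on the log2 scale (adjusted p = 0.175), and that on SNORA13 by 0.87 ± 0.21 (adjusted p = 0.185). For ST the smallest p-values were those of SNORA21 (-0.78 ± 0.24, adjusted p = 0.363) and SNORA70G (1.43 ± 0.49, adjusted p = 0.382). Without mock 120 min A, 5 members passed for EcN in limma, among them SNORA50C (adjusted p = 0.0172) and SNORA13 (adjusted p = 0.0261). For ST 1 passed, SNORA21 (adjusted p = 0.0497). The share of all genes that passed in that fit is not given here. With all arrays in the fit, no effect is shown to differ between 60 and 120 min.

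A test for any difference among the 6 groups (limma's moderated F-test) called 8 of 69 members (11.6%), against 4.08% of all genes. They were SNORA13, SNORA65, SNORA50C, SNORA2A, SNORA22, SNORA21, SCARNA20 and SCARNA10, with adjusted p-values from 0.0270 to 0.0467. SNORA2A was called in this test alone. Its mock arrays at 60 min, at 3.31, 3.36 and 2.86, were its lowest group, and ST 120 min A and C, at 4.84 and 5.03, its highest arrays. The count fell to 0 without any 1 of the mock arrays at 60 min or without EcN 120 min B, and was 12 without mock 120 min A or mock 120 min C. Without any other array it lay between 1 and 5. Shares of all genes in those fits are not given here.

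**Figure D3:**
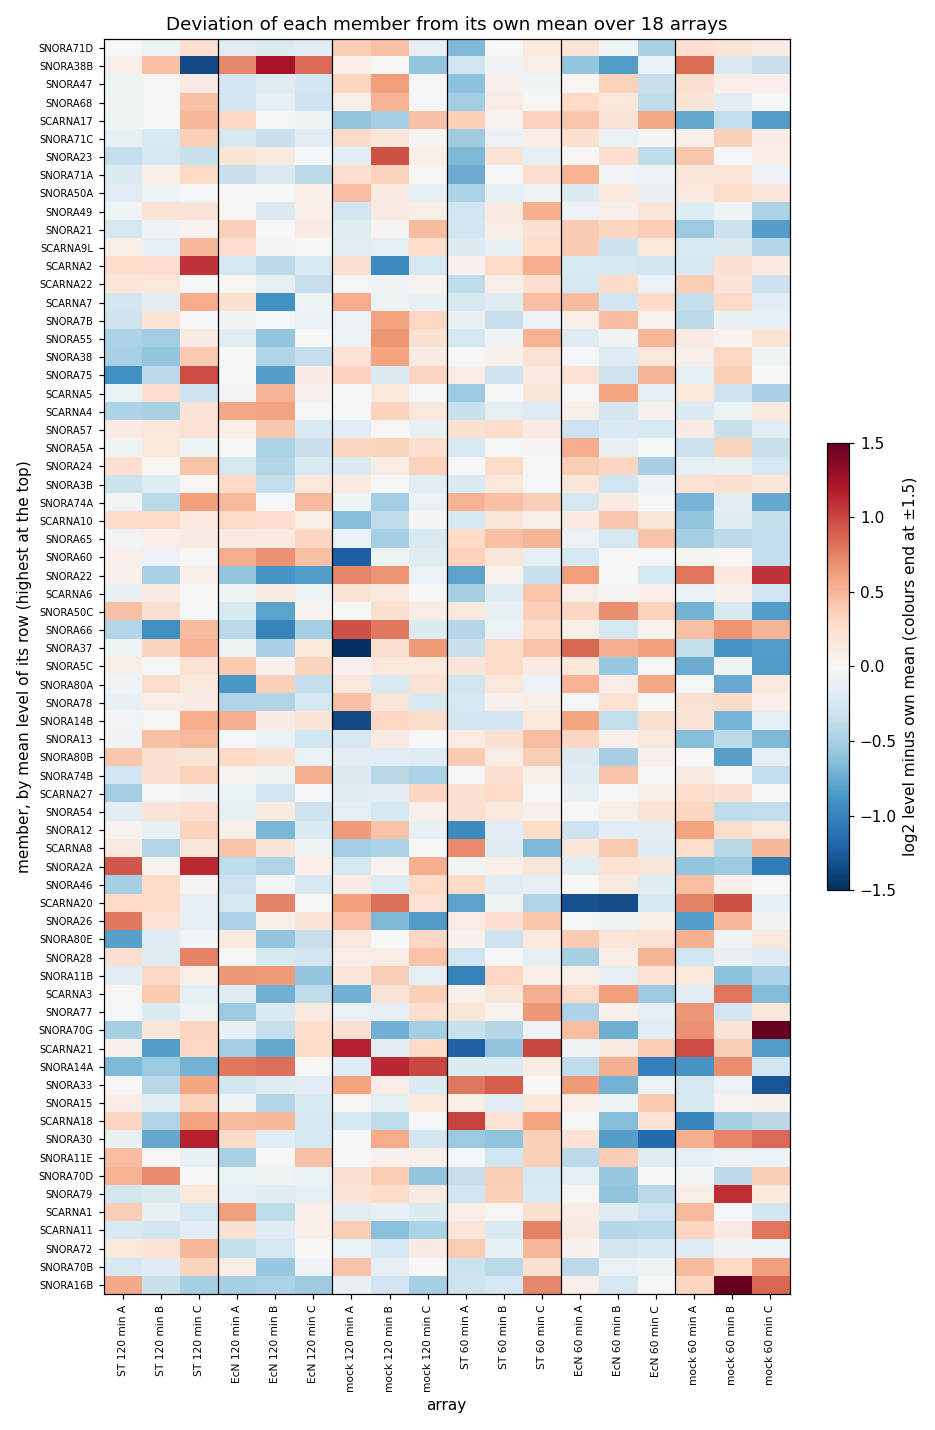
Log2 level of each of the 69 members that passed the filter (vertical axis, ordered by the mean of its row) minus its own mean over the 18 arrays (horizontal axis, by group); red is above and blue below the member's mean. Single arrays such as ST 60 min A and ST 120 min C stand out across many members, and neighbours within a group often differ in colour.

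Members varied more between arrays of a group than most genes. The median within-group SD was 0.31 over the 69 members and 0.18 over all genes tested (log2 scale). Among rows with a mean of at least 6 it was 0.28 over 20 members and 0.14 over 6787 genes, so the wider spread was not limited to dim rows. The most variable members were SNORA38B, SNORA37, SCARNA21, SNORA30 and SNORA70G, with ranges from 2.31 to 2.61 over the 18 arrays. SNORA38B ran from 9.20 on ST 120 min C to 11.82 on EcN 120 min B. SNORA37 ran from 3.75 on mock 120 min A to 6.19 on EcN 60 min A, and SNORA30 from 1.47 on EcN 60 min C to 3.80 on ST 120 min C. SCARNA21 was lowest on ST 60 min A (1.87) and highest on mock 120 min A (4.25), and SNORA70G lowest on EcN 60 min B (2.43) and highest on mock 60 min C (4.74). No group held these extremes together, and none of the 5 was called. SNORA37 came nearest: it had 6.19, 5.86 and 5.95 on the EcN arrays and 4.97, 4.45 and 4.49 on the mock arrays at 60 min, without overlap, a log2 fold change of 1.36 ± 0.40 (adjusted p = 0.0521).

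The 8 members with the highest mean levels were SNORA71D, SNORA38B, SNORA47, SNORA68, SCARNA17, SNORA71C, SNORA23 and SNORA71A. Levels of different rows are not comparable, so they are named without an order. Of these, 6 had their lowest value of all 18 on ST 60 min A: SNORA71D (10.06), SNORA47 (9.85), SNORA68 (9.63), SNORA71C (9.40), SNORA23 (8.96) and SNORA71A (8.35). SNORA71D, for example, had 10.73 and 10.88 on the other ST arrays at 60 min. SNORA71A, C and D are near copies inside SNHG17 and guide 18S rRNA, and their rows may take up one another's RNA. None was called over mock: at 60 min their log2 fold changes with ST were -0.26, -0.36 and -0.36. SCARNA5 (U87), a composite guide, ranged from 5.45 on ST 60 min A to 6.60 on EcN 60 min B and was not called either.

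Whole arrays shifted in the members at once. The median level of the 69 members was lowest on EcN 120 min B (4.70) and highest on EcN 60 min A (5.43). Yet on EcN 60 min A the members' median deviation from their own means was only 0.07, with 43 above it. This deviation was 0.19 on ST 120 min C, 0.16 on ST 60 min C, -0.18 on EcN 120 min B and -0.23 on ST 60 min A. On ST 120 min C 52 of 69 members lay above their own mean and 10 had their highest value, and on ST 60 min C 51 lay above it. On EcN 120 min B 24 lay above it, and on ST 60 min A 25, with 13 members at their lowest value there. Mock 60 min C held the lowest value of 10 members, including SNORA13, SCARNA17, SNORA21, SNORA50C, SNORA74A and SNORA5C. The arrays at the ends of the order of medians depended on the setting. After renewed quantile normalization mock 60 min C was lowest, with the stricter filter ST 120 min C was highest, and with no filter mock 60 min B was lowest, ST 120 min C highest and EcN 60 min A 16th of 18.

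Other RNA classes moved on some of the same arrays. The median of 58 C/D box small nucleolar RNAs was also lowest on EcN 120 min B (5.06), and highest on ST 60 min C (6.15). On ST 60 min C the members' median was 5.16, and 51 of 69 members lay above their own mean (median deviation 0.16). Housekeeping genes were lowest on EcN 120 min B (7.08) and highest on mock 120 min A (7.74). Ribosomal protein genes lay between 6.35 on ST 120 min A and 6.76 on ST 120 min C, and 340 microRNA precursors only between 2.78 and 2.96. At 60 min, 6 of the 58 C/D box RNAs were called higher with ST and 5 with EcN, and none lower. Of 53 ribosomal protein genes, 2 were called higher with ST and 5 with EcN, and none lower. Of the microRNA precursors, 3 were higher and 9 lower with ST, and 1 was higher and 10 lower with EcN. Among all genes tested, 2.23% rose and 3.03% fell with ST, and 3.08% rose and 3.37% fell with EcN. The RNA came from silica columns of the RNeasy kit, which recover short RNAs less fully than messenger RNAs, and the SNORA genes have annotated lengths from 122 to 236 nt. The part of RNA quality and recovery per array in the members' differences was not tested.

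**Figure D4:**
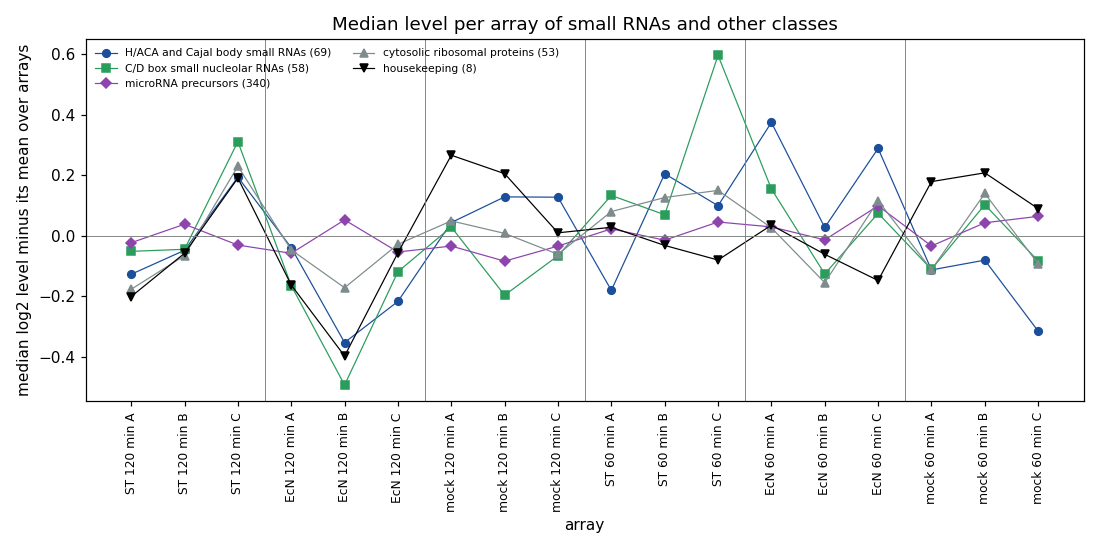
Median log2 level on each array minus the mean of these medians (vertical axis), for the 69 members, 58 C/D box RNAs, 340 microRNA precursors, 53 ribosomal protein genes and 8 housekeeping genes, by array (horizontal axis). The members, the C/D box RNAs and the housekeeping genes share their low point on EcN 120 min B, and ST 60 min C is the high point of the C/D box RNAs.

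The proteins that build H/ACA particles and Cajal bodies were mostly not called. None of the 7 tested genes for core and assembly proteins passed over mock at either time, among them GAR1, NHP2, NOP10 and the assembly factors NAF1 and SHQ1. DKC1 has no tested row of its own. Nor did any of 4 enzymes that trim H/ACA RNA ends, such as PARN, or 3 proteins of C/D box particles. Among all genes 5.26% were called with ST and 6.45% with EcN at 60 min, so 0 calls in lists this short is uninformative. At an unadjusted p under 0.05 and 60 min, the core and assembly list held 4 genes with ST and 0 with EcN. The trimming enzymes held 1 and 3, the Cajal body genes 1 and 3, and the C/D box proteins none. Of all genes, 22.5% with ST and 24.8% with EcN reached it. Of 6 Cajal body genes, WRAP53 alone was called. WRAP53, which binds Cajal body RNAs and telomerase RNA and brings them to the Cajal body, had 6.52, 6.47 and 6.49 on the ST arrays, 6.33, 6.49 and 6.37 on the EcN arrays, and 6.98, 7.01 and 6.89 on the mock arrays at 60 min. All flagellin arrays lay below mock. It fell by 0.56 ± 0.12 with EcN (adjusted p = 0.0239) and by 0.47 ± 0.12 with ST (adjusted p = 0.041, limma). The EcN call held in 13 of 18 fits without 1 array and was lost without mock 60 min B or C or any EcN array at 60 min. The ST call held in 8, and was lost without any mock or ST array at 60 min, EcN 60 min B or C, EcN 120 min A or ST 120 min A. With the C arrays left out the adjusted p was 0.076 with EcN and 0.0978 with ST, and with mock 120 min A left out too it was 0.0342 and 0.0655.

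TERC, the telomerase RNA, ends in an H/ACA domain of its own. It had 9.22, 9.36 and 8.98 on the EcN arrays and 8.68, 8.80 and 8.35 on the mock arrays at 60 min, without overlap. It rose by 0.57 ± 0.13 with EcN (adjusted p = 0.0251) and was not called with ST, where it had 8.76, 8.94 and 9.11. As in several members named above, mock 60 min C was its lowest array. The call was lost without mock 60 min B or C, EcN 60 min A or B, or the 6 C arrays (adjusted p = 0.1).

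Of the 69 tested members, 51 lie in a gene with a tested row, 48 such genes in all, and 3 of these genes were called with ST and 3 with EcN at 60 min. That is 6.25% of the holding genes in each case, beside 5.26% of all genes with ST and 6.45% with EcN. Called members in a gene with a tested row were 4 with ST and 2 with EcN. The log2 fold change of at least 1 holder had the member's sign in 2 with ST and in both with EcN. A called holder was found for 1 member. That was SNORA65 in RPL12, a ribosomal protein gene, which had 4.98, 5.02 and 5.35 on the ST arrays and 4.03, 4.51 and 4.67 on the mock arrays and rose by 0.71 ± 0.18 (adjusted p = 0.0375). This call was lost without any mock or ST array at 60 min and without the C arrays (adjusted p = 0.149). SNORA13 rose while EPB41L4A-AS1 had 4.91, 4.73 and 4.83 on the ST arrays and 4.62, 4.55 and 4.47 on the mock arrays, a log2 fold change of 0.28 that was not called (adjusted p = 0.204). With EcN it was 0.39 (adjusted p = 0.0759). EPB41L4A, which also holds SNORA13, had 5.99, 5.77 and 5.76 on the ST arrays and 6.17, 5.79 and 5.93 on the mock arrays. These overlap, and their mean was lower with ST, the sign opposite to that of SNORA13. On the EcN arrays EPB41L4A had 6.39, 5.97 and 6.05, with a mean above mock.

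SCARNA18 lies in TMEM167A, whose log2 fold change with ST was -0.02, and SCARNA10 in NCAPD2, whose log2 fold change with EcN was 0.20 (adjusted p = 0.164). SNORA22 fell with ST while CCT6P1, the pseudogene that holds it, had a log2 fold change of 0.40 (adjusted p = 0.255), of opposite sign. In the other direction, NOL11, a factor of ribosomal RNA transcription and processing that holds SNORA38B, fell by 0.57 ± 0.14 with ST (adjusted p = 0.0291) and by 0.64 ± 0.14 with EcN (adjusted p = 0.0211). Both calls were lost without mock 60 min B or C, without EcN 60 min B or C (EcN call) or any ST array at 60 min (ST call), and without the C arrays (adjusted p = 0.151 with ST and 0.158 with EcN). SNORA38B itself had log2 fold changes of -0.18 and -0.61 that were not called. SNHG22, RPL23 (around SNORA21) and MATR3 (around SNORA74A) have no row of their own here. A row for a gene and a row for the member inside it can share signal where the strand or splicing is not resolved.

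**Figure D5:**
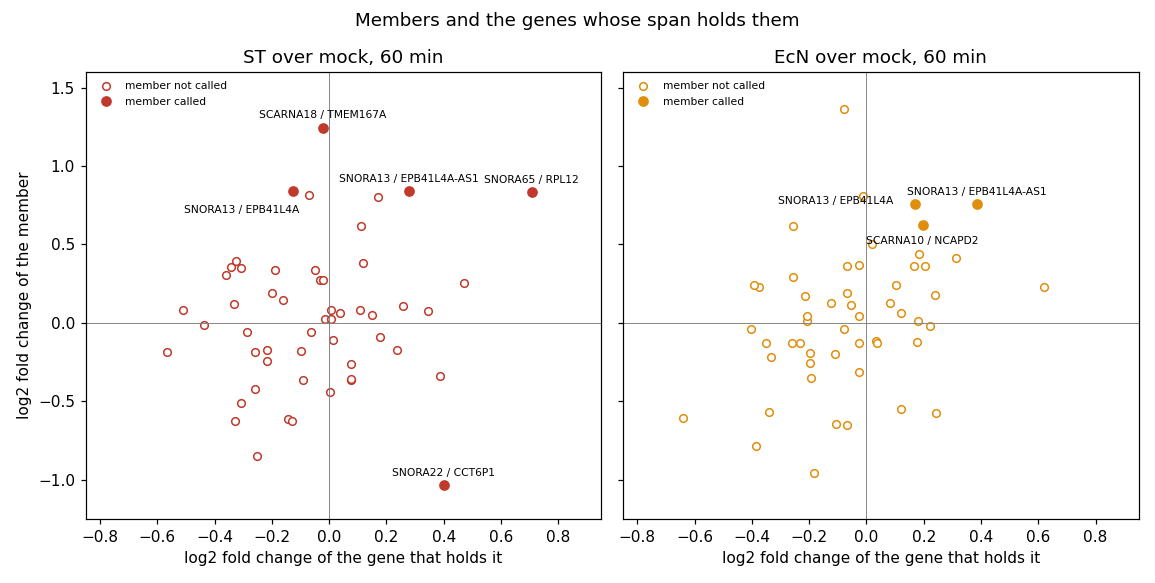
Log2 fold change of a member (vertical axis) against that of the gene whose span holds it (horizontal axis), over mock at 60 min with ST and EcN; filled points are called members, named with the gene. SNORA65 with RPL12 lies far to the upper right with ST, and SNORA22 with CCT6P1 has opposite signs.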

How the data were processed

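RNA of 18 samples was hybridised to the Human Gene 2.1 ST array of Affymetrix, as the series' design text states. The authors deposited log2 values, made by RMA with oligo 1.30.0 according to the submitters' processing notes. No genome build or annotation version is given there. The table has 53617 rows; array medians lay between 2.27 and 2.32, and values were used as deposited. Rows were named through the platform annotation: 23871 had 1 symbol, 1842 several, and 27904 were not listed. RefSeq names (GRCh38.p14) replaced 655 symbols and none of the members'.

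Rows with 1 symbol and values over the array median on 3 or more arrays were tested, with the highest-mean row per gene. Testing used limma 3.58.1 under R 4.3.3 (lmFit with 6 group means over all 18 arrays, eBayes with default settings, 12 residual and 4.20 prior degrees of freedom). All p-values are two-sided and adjusted by Benjamini-Hochberg over 16111 genes within a comparison, with calls at an adjusted p under 0.05. The fit was tested on simulated data. The number of arrays limits the precision.

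The members, gene lists, named genes and alternatives were chosen with earlier results of these data known. Named were, per comparison, up to 5 called members in each direction or the 2 with the smallest p, the 8 with the highest mean, the 5 with the largest range, and SNORA73A, SNORA73B, SCARNA2, SCARNA5, SCARNA9 and SCARNA10; others come from a count or a family. Alternatives were other scaling, filters, row choice, variance settings, array weights, only the groups compared, the letter as a block, and arrays left out. Same-letter arrays did not deviate together: over 45 pairs the correlation of deviations ran from -0.24 to 0.27, with 10 pairs over 0.1, so the letters were not treated as pairs.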

Additional observations from a re-analysis of the deposited data

How the results depend on the processing

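With all 18 arrays the counts of called members were small and moved with most choices, and no named result changed sign. Of 927 named results under an alternative, 803 kept their side of the threshold, 112 lost a call and 12 gained one. All the losses fell on results called with all arrays, and the 803 include uncalled results that stayed uncalled. Of 29 alternatives per call, the call was lost in 1 (SNORA65 with ST) to 21 (SNORA50C with ST). The cause of a move was not tested, and fits without arrays have fewer samples. The counts below are of members only. The share of all genes called under each alternative is not given here, so these counts do not show a change particular to the members.

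For EcN over mock at 60 min, members called higher were 0 with the 6 C arrays left out and 3 with mock 120 min A left out too, and 0 to 7 with 1 array left out. Members called lower were 2 with the stricter filter, 3 with trend and robust settings, 4 with array weights and 4 with only the groups compared, and 0 to 3 with 1 array left out (0 without replicate B or C of mock 60 min, or A or B of EcN 60 min; 3 without mock 120 min A; 2 without mock 60 min A or ST 120 min C).

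For ST over mock at 60 min, members called higher were 11 with array weights, 0 with the C arrays left out and 1 with mock 120 min A left out too, and 1 to 9 with 1 array left out. Members called lower were 0 with no filter, with only the groups compared, with the replicate block, and without the C arrays with or without mock 120 min A; 2 with trend and robust settings and 5 with array weights; and 0 to 2 with 1 array left out. SNORA22 kept that call in 5 of 18 such fits.

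At 120 min, EcN over mock gave 1 higher and 1 lower with trend and robust settings and 1 lower without the 6 C arrays, and 0 to 2 higher and 0 to 4 lower with 1 array left out. ST over mock gave 1 higher and 3 lower without the C arrays and mock 120 min A, and 0 to 1 in either direction with 1 array left out (mock 120 min A or mock 120 min C). Mock 120 min over mock 60 min gave 0 to 5 higher and 0 to 3 lower, the change of the EcN effect 0 to 5 and that of the ST effect 0 to 1, each raised without mock 120 min A. The F-test called 4 members after renewed quantile normalization, 2 with no filter, 13 with trend and robust settings, 16 with array weights, 2 with the replicate block, 0 without the C arrays with or without mock 120 min A, and 0 to 12 with 1 array left out.

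With the replicate block, 5 members were called higher and 1 lower with EcN at 60 min and 5 higher and 0 lower with ST. Over all tested genes the letters pair the samples only weakly by their deviations, and 7 of 18 arrays correlated best with an array of their own letter. With 3 arrays per group, the spread of these rows limits what could be called.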
